A study of Mus musculus with 8 samples.

Results

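Columnar epithelial barcodes were selected from single-cell libraries of the mouse colonic lamina propria by their transcripts, and 60 of 96721 barcodes met the rule (0.062%). A barcode qualified with at least 400 genes and under 20% mitochondrial UMIs (unique molecular identifiers, each standing for 1 captured transcript), at least 1 Epcam UMI, and at least 6 UMIs of Krt8, Krt18 and Krt19 together. It was left out with more than 2 UMIs of the basal keratins Krt5 and Krt14, more than 1 of the T cell genes Cd3d, Cd3e and Cd3g, more than 2 of the macrophage gene C1qa, or more than 5 of the fibroblast genes Col1a1 and Dcn. All of these values are measured transcripts, so the levels of these genes are a description of the choice. Where they passed the filter, these genes stayed in the fits and gene counts below, and no test result is given for them.

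The study sequenced 8 libraries of cells enriched for CD4+ T cells from C57BL/6 mice aged 10 to 12 weeks. Dextran sulfate sodium (DSS), which injures the colon epithelium, was given at 2% in the drinking water for 7 days and followed by 3 days of plain water, and tissue was taken on day 10. Untreated mice drank plain water for the same 10 days. Each treatment was applied to wildtype mice and to mice with a serine-to-alanine change in RORgt, the lineage transcription factor of Th17 cells, and each of the 4 groups had 2 libraries. The sample names call this change S203A and the series title calls it S182A. The mutation lies in a gene of lymphocytes, and the CD4+ enrichment was meant to remove epithelium, so the 60 barcodes are what passed through that enrichment and not a sample of the colon lining. None of the 60 is among the 27420 barcodes of the authors' deposited cell list, and none held a Cd4 UMI.

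The lining of the colon is a single layer of columnar cells renewed from stem cells at the base of the crypts. Absorptive colonocytes take up water and salt, goblet cells release the Muc2 mucus that keeps bacteria away from the surface, and deep crypt secretory cells, marked by Reg4, lie beside the stem cells. All of them carry the adhesion molecule Epcam and the keratins of simple epithelia, which other glands of the body, among them the prostate and the seminal vesicle, carry as well.

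The 60 barcodes were spread unevenly. Untreated wildtype libraries 1 and 2 held 6 and 2, untreated S203A libraries 1 and 2 held 38 and 1, DSS wildtype libraries held 7 and 2, and DSS S203A libraries held 3 and 1. A single library, untreated S203A 1, thus gave 63.3% of them. The 60 barcodes held between 1308 and 217431 UMIs, with a median of 10582.5 and 985347 in all, and the 8 libraries held between 34497509 and 46960005 UMIs over all barcodes. Any pair of libraries had between 19 and 59 barcode sequences in common. Of the 3842 barcodes with an Epcam UMI, 122 reached the keratin sum, and the other criteria removed 62 of these, 50 of them by Krt5 and Krt14. Near the keratin threshold, 5 barcodes had a sum of 5 and fell outside, and 3 had a sum of 6 and were kept.

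**Figure D1:**
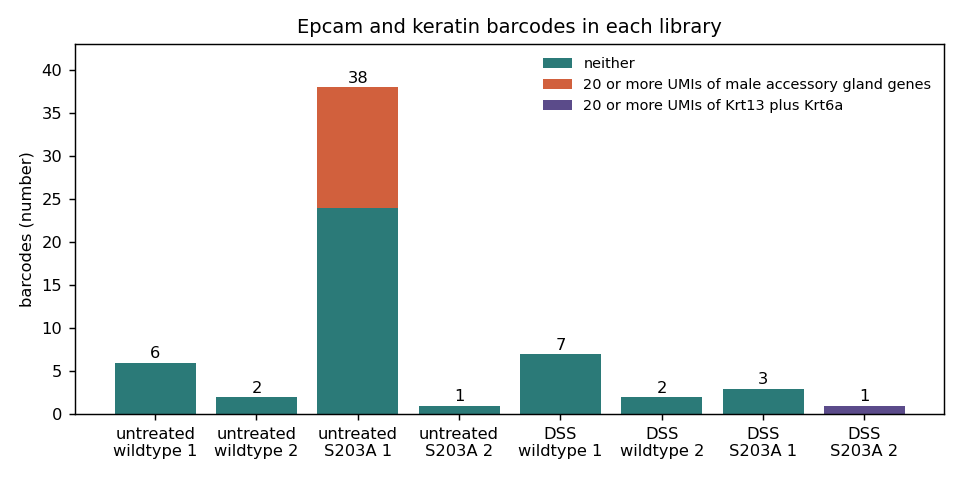
Number of barcodes that met the Epcam and keratin rule in each library (bars, 8 libraries), split by the transcripts they carried. Untreated S203A library 1 stands apart with 38 barcodes, 14 of which carried male accessory gland transcripts, and the other 7 libraries held 1 to 7.

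The label of colon epithelium did not hold for 15 of the 60 barcodes. In untreated S203A library 1, 14 barcodes carried between 21 and 72022 UMIs of genes of the male accessory glands, the seminal vesicle and prostate, whereas the other 46 barcodes of all libraries carried at most 1. These 14 had no UMI of Lgals4, Phgr1 or Cdx1, which encode a gut galectin, a small gut epithelial protein and the intestinal transcription factor CDX1, and none of its relative Cdx2. In 1 barcode of DSS S203A library 2, Krt13 reached 289 UMIs and Krt6a 207 UMIs, keratins of stratified epithelia, with Krt8 and Krt18 at 0 and Krt19 at 14. This split at 20 UMIs was made after the values were seen and is used here only to describe.

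The 14 barcodes fell into 2 sets without overlap. In 4 of them the seminal vesicle secretory genes led: Svs5 gave 2050 to 53310 UMIs per barcode and Svs4 gave 1258 to 15573, together with Pate4 at 138 to 2486 and with the transcription factor gene Sox9 at 5 to 133. These 4 had no UMI of Pbsn, which encodes the prostate protein probasin. In the other 10, Pbsn gave 21 to 564 UMIs, Svs4 was at 0, the protease gene Mmp7 was present in 9, and the transcription factor gene Hoxb13 was present in 8. Svs4 lies at chr2:164275956-164278307, Svs5 at chr2:164332765-164334394 and Pbsn at chrX:77837898-77853500 (GRCm38, RefSeq gene bounds). No barcode had 20 or more UMIs of both sets.

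One of the Svs5 barcodes was also the deepest of all, with 217431 UMIs, and gave 32.5% of the UMIs of its library's 38 barcodes. With it, Svs5 stood at 89373 CPM (UMIs per 1000000 UMIs) in the sum of the 38, and without it at 14197. Transcripts of these genes were not limited to the selected barcodes of that library: 17.1% of its T cell barcodes carried an Svs5 UMI (113 CPM) and 5.73% a Pbsn UMI (18.5 CPM). In the other 7 libraries, Svs5 was seen in at most 0.0934% of T cell barcodes and Pbsn in at most 0.0233%.

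**Figure D2:**
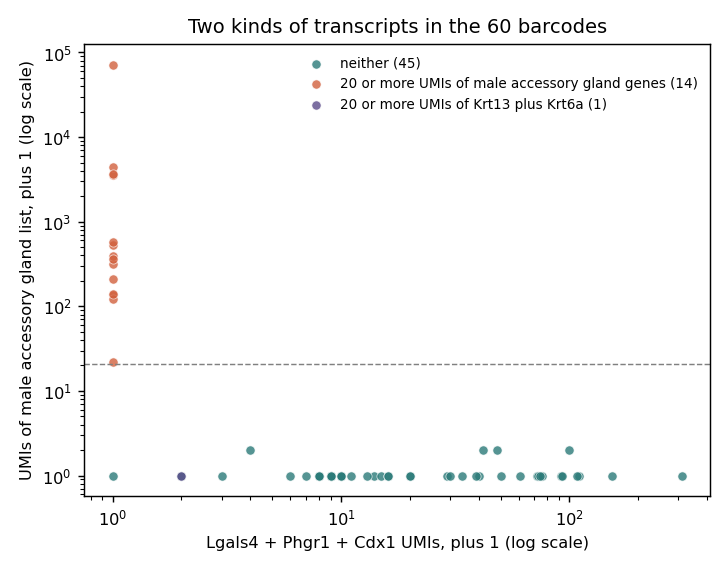
UMIs of the male accessory gland list against UMIs of Lgals4, Phgr1 and Cdx1 in each of the 60 barcodes (points, both axes logarithmic with 1 added, dashed line at 20 UMIs). The 14 barcodes above the line have 0 UMIs on the horizontal axis, and the other 46 have at most 1 UMI on the vertical one.

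The remaining 45 barcodes carried the transcripts of colon epithelium. They numbered 6, 2, 24 and 1 in untreated wildtype 1 and 2 and untreated S203A 1 and 2, and 7, 2, 3 and 0 in the DSS libraries in the same order. Lgals4 was detected in 44 of the 45, the tight junction gene Cldn7 in 43, Phgr1 in 42, and Pigr, which encodes the receptor that carries antibodies across the epithelium, in 39. In T cell barcodes of the same libraries, Lgals4 was found in at most 1.84% and Phgr1 in at most 0.134%, at median depths of 2430 to 3717 UMIs against 6963 for the 45. The intestinal factor Cdx1 was detected in 30 of 45, and Hoxb13, a homeobox gene of the hindgut, in 22. Cldn7, Pigr and Hoxb13 do not set the 45 apart from the accessory gland barcodes. Cldn7 was present in all 4 Svs5 barcodes and in 7 of the 10 with Pbsn. Pigr and Hoxb13 were each present in 8 of those 10. One shallow barcode among the 45 had no UMI of Lgals4, Phgr1 or Cdx1.

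Genes of mature absorptive cells ranged from absent to common in the 45. The absorptive colonocyte list took up to 1.53% of a barcode's UMIs, with a median of 0.0900%. The surface gene Lypd8 had 866 UMIs in 34 barcodes, Guca2a, which encodes the peptide guanylin, was detected in 15 and Car1 in 9. The colonocyte genes Car4 (carbonic anhydrase IV), Slc26a3 (the chloride and bicarbonate exchanger) and Aqp8 (a water channel) had no UMI in any of the 589532 UMIs of the 45, which allows up to 3 UMIs, and the surface keratin Krt20 was detected in 5 barcodes. Chga of enteroendocrine cells and Dclk1 of tuft cells had no UMI, and the stem cell gene Lgr5 was detected in 4. Of the lists for other cell types, the plasma cell list reached at most 0.461% of the UMIs of any of the 45, the endothelium list 0.355%, the squamous epithelium list 0.244%, the B cell list 0.202% and the fibroblast list 0.197%. The macrophage and monocyte list reached 0.0559%, the T cell list 0.0530% and the neutrophil list 0.0285%. One barcode of untreated S203A 1, with 27342 UMIs, carried 73 UMIs of Lyve1, 147 of Ccl21a and 82 of Mmrn1, genes of lymphatic endothelium, beside 15 of Lgals4.

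Goblet cell transcripts divided the 45 with a gap between the sets. The 14 genes of the goblet list made up at least 1.87% of the UMIs in 12 barcodes and at most 0.944% in the other 33, so that no barcode lay between these values. In the 12, Muc2, which encodes the gel-forming mucin, gave 4 to 302 UMIs, Spink4 gave 13 to 490, Agr2, a chaperone of mucin folding, gave 54 to 571, and Klk1, a tissue kallikrein, gave 4 to 43. Reg4 was present in 9 of these 12 against 3 of the 33. Retnlb, which encodes the goblet cell protein RELM-beta, was present in 8 of the 12, with 1030 of its 1032 UMIs in the 45. Mptx1, a mucosal pentraxin gene at chr1:174330518-174332877, was present in 7 of the 12 with 1363 of its 1370 UMIs, although neither it nor Retnlb is on the goblet list. The 12 were 3 of 6, 2 of 2, 5 of 24 and 0 of 1 barcodes in the untreated libraries, and 1 of 7, 0 of 2 and 1 of 3 in the DSS libraries that held any of the 45. This is 10 of 33 untreated and 2 of 12 DSS barcodes, and because 24 of the 33 share a library these shares were not tested.

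Cell cycle transcripts took a smaller share of the goblet barcodes. Mki67, a marker of cycling cells, was detected in 18 of the 33 with little goblet transcript and in 1 of the 12 with much, at median depths of 3958 and 12305 UMIs. The summed proliferation list had a median of 0.288% of UMIs in the 33 and 0.0323% in the 12. These sets pool libraries. Untreated wildtype 1 and 2, with Mki67 at 0, gave 3 and 2 of the 12, and a difference within libraries was not tested. When each of the 45 was thinned to 1000 UMIs, Mki67 was detected in 3 rather than 19. The summed proliferation list reached at most 0.793% of the UMIs of a barcode, in the single barcode of untreated S203A 2, and had a median of 0.129%.

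**Figure D3:**
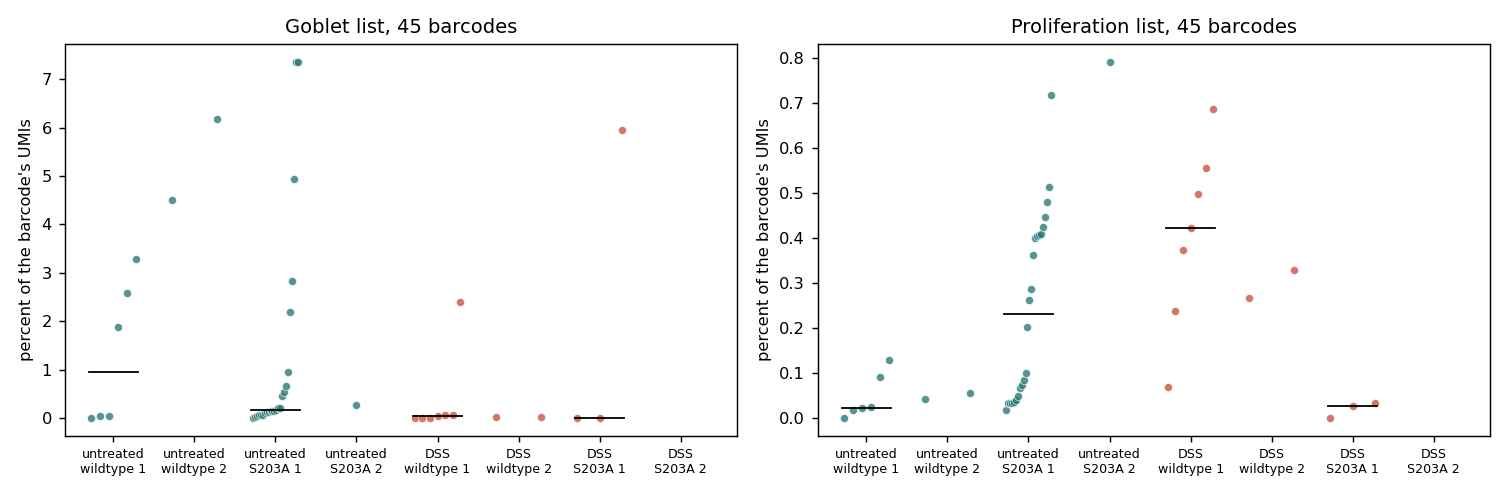
Share of each barcode's UMIs taken by the goblet list (left) and the proliferation list (right) in the 45 barcodes without accessory gland or Krt13 and Krt6a transcripts, by library (points sorted by value, line at the median where a library has more than 2). The 12 barcodes above 1% in the left panel stand clear of the other 33, which lie at or below 0.944%, and DSS S203A 2 has no point.

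Sizes and quality of the barcodes also differed between libraries. In DSS wildtype 1, 4 of the 7 barcodes had 1308 to 3304 UMIs, no UMI of the nuclear RNA Malat1 and at most 0.182% mitochondrial UMIs, while its other 3 had 3.60% to 9.71% mitochondrial UMIs. Among the 45, no barcode outside that library lacked Malat1. The only barcode of untreated S203A 2 had 18.4% mitochondrial UMIs, the highest of the 45 and near the 20% limit. It also carried the leukocyte gene Ptprc, and all values of that library below rest on it. The sum of DSS S203A 2 rests on the Krt13 and Krt6a barcode alone, so its values below are not levels of colon epithelium. A single barcode held 49.1% of the UMIs of DSS wildtype 1, and with 1 to 3 barcodes in 5 of the 8 libraries the library values below rest on very few cells.

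The share of selected barcodes did not separate treatments or genotypes. It was 0.0452% (95% Clopper-Pearson interval 0.0166 to 0.0984) in untreated wildtype 1, 0.0167% (0.00202 to 0.0603) in untreated wildtype 2, 0.360% (0.255 to 0.494) in untreated S203A 1 and 0.0091% (0.00023 to 0.0507) in untreated S203A 2. After DSS it was 0.0647% (0.0260 to 0.133) and 0.0149% (0.00181 to 0.0539) in wildtype, and 0.0195% (0.00403 to 0.0570) and 0.00967% (0.000245 to 0.0539) in S203A. Apart from untreated S203A 1, the intervals of the libraries overlapped. These intervals cover counting error only, and a lower share can come from fewer cells as well as from less RNA per cell, since a barcode needs enough UMIs to pass the rule.

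The mean share was 0.108% ± 0.169 (SD, n = 4) without treatment and 0.0272% ± 0.0253 (SD, n = 4) after DSS, a difference within the spread (exact two-sided permutation test, p = 0.629, with 0.0286 the smallest p that 4 against 4 can give). Without untreated S203A 1 the difference turned to 0.00351 percentage points higher after DSS (exact permutation p = 0.8). Between genotypes the mean was 0.0997% ± 0.174 (SD, n = 4) in S203A and 0.0354% ± 0.0240 (SD, n = 4) in wildtype (exact permutation p = 0.943), and without untreated S203A 1 the S203A mean fell below that of wildtype, by 0.0226 percentage points (exact permutation p = 0.171).

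The comparison of gene levels used UMIs summed over the selected barcodes of each library. In untreated S203A 1, the 24 barcodes without accessory gland transcripts held 300904 of the 668079 UMIs of its 38 barcodes. The CPM of genes absent from its accessory gland barcodes are therefore lower there than over these 24. Of the 8 sums, 7 came from under 10 barcodes, which is fewer than had been planned for a fit, so the tests that follow show what so few cells allow and no more. Between DSS and untreated libraries, genotypes averaged, 2 of 760 genes passed edgeR's quasi-likelihood test at an adjusted p of 0.05 (0.263%), and 59 had an unadjusted p under 0.05. The count fell to 0 without either untreated S203A library and was 8 without DSS wildtype 2 and 36 without DSS S203A 1. When the 15 barcodes with accessory gland or Krt13 and Krt6a transcripts were left out, a choice made after seeing the data, 4 of 2134 genes passed (0.187%), with 1 S203A library left after DSS in both of the last 2 settings.

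Mptx1 fell and 2200002D01Rik rose. Mptx1 stood at 10332, 1947, 1193 and 0 CPM in untreated wildtype 1 and 2 and untreated S203A 1 and 2, and at 0 in all 4 DSS libraries. It was thus high in 3 untreated libraries, and the groups met at 0, where untreated S203A 2 has only 1 barcode. Of the DSS zeros, that of S203A 2 rests on the Krt13 and Krt6a barcode alone. That of wildtype 2 rests on 2 barcodes, 0 of them with 1% or more goblet list UMIs. Over all untreated barcodes together it reached 1820.5 CPM, at least 141-fold higher than the floor of 3 UMIs over the DSS group (12.9 CPM). The bound was 242-fold over the 45 barcodes and 526.5-fold without untreated S203A 1. These bounds pool UMIs over barcodes and libraries. They cover counting error only and not the spread between barcodes or libraries. The edgeR adjusted p was 0.0238. Leaving out untreated S203A 1 ended this call (adjusted p = 0.9998), as did leaving out untreated S203A 2 (adjusted p = 0.114), members with Ptprc (adjusted p = 0.117) or the use of DESeq2 (adjusted p = 0.306). Leaving out members with Ptprc also emptied untreated S203A 2, whose only barcode carried it, so that setting includes leaving out this library. All 1370 Mptx1 UMIs came from 10 barcodes, 514 of them from 1 barcode of untreated wildtype 1. The summed goblet list stood at 14876, 53003, 6793 and 2717 CPM in the untreated libraries and at 5247, 167, 26711 and 69.8 after DSS. In DSS S203A 1, 1 of 3 barcodes had 1% or more of its UMIs in the goblet list. Over all libraries, Mptx1 was present in 7 of the 12 such barcodes. Whether its change went beyond the number of goblet barcodes was not tested.

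2200002D01Rik, which RefSeq lists at chr7:29247521-29248467, stood at 60.3, 99.0, 44.9 and 0 CPM in the untreated libraries in the same order. After DSS it stood at 394 and 550 CPM in wildtype and 1218 and 2444 in S203A, so the 4 DSS libraries lay above the 4 untreated ones. The fitted change was 4.07 ± 0.75 (log2, SE), with an edgeR adjusted p of 0.0348. The highest value came from the single Krt13 and Krt6a barcode, with 70 of the 206 UMIs. Among the 45 the gene was detected in 22 barcodes and stood at 90.8 CPM over the untreated and 490 CPM over the DSS barcodes. Leaving out any 1 of 6 libraries ended the call, as did the lack of a filter on low counts (edgeR adjusted p = 0.237). Leaving out members with Ptprc, which also empties untreated S203A 2, ended it as well. The call held without either DSS S203A library.

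**Figure D4:**
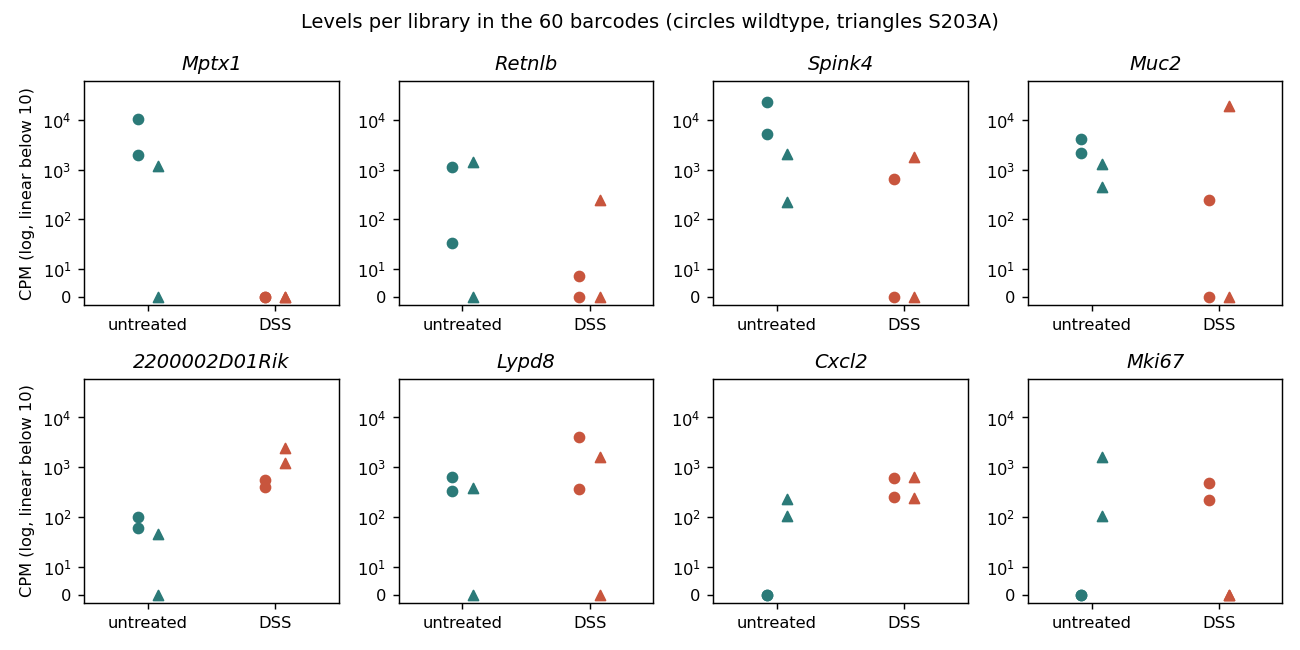
Levels of 8 genes in each library, in CPM over the selected barcodes (1 point per library, 4 untreated and 4 DSS, axis logarithmic above 10 and linear below). Mptx1 is at 0 in all 4 DSS libraries, 2200002D01Rik and Cxcl2 are higher in each DSS library than in any untreated one, and the other 5 genes overlap. DSS S203A 2 holds only the Krt13 and Krt6a barcode.

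Cxcl2, a neutrophil-attracting chemokine, did not pass the test (edgeR log2 change 5.27 ± 1.10, adjusted p = 0.0913) although its library values did not overlap. It stood at 0, 0, 108 and 226 CPM without treatment and at 250, 600, 244 and 628 CPM after DSS, with the 226 resting on 1 UMI and the 244 on 3. The 628 came from the Krt13 and Krt6a barcode (18 UMIs), and 22 of the UMIs behind the 108 came from accessory gland barcodes. The related chemokine Cxcl1 stood at 0, 0, 65.9 and 0 CPM against 75.8, 283, 162 and 105. In T cell barcodes of the same libraries, Cxcl2 stood at 131 to 251 CPM untreated and at 148 to 266 after DSS. Only DSS wildtype 2 and DSS S203A 2 of the selected sums stood at more than 2 times the T cell level of their own library, and the part of free RNA was not tested.

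Within wildtype, the secretory cell genes Spink4, Muc2, Retnlb and Ccl6 had lower values in both DSS libraries than in both untreated ones. Barcodes with 1% or more goblet list UMIs were 3 of 6 and 2 of 2 in untreated wildtype, and 1 of 7 and 0 of 2 in DSS wildtype. Whether the lower values went beyond these numbers was not tested. None of the 4 genes passed the test between treatments or between genotypes over the 60 barcodes. They were not chosen by a fixed rule, and Zg16 of the goblet list had 20 of its 24 UMIs in 1 barcode of DSS wildtype 1. Spink4 stood at 5166, 23135, 2076 and 226 CPM without treatment and at 652, 0, 1786 and 0 after DSS (edgeR log2 change -3.05 ± 1.23, adjusted p = 0.564). Muc2 stood at 2191, 4092, 1271 and 453 CPM against 250, 0, 19079 and 0, and the 235 UMIs behind the value of 19079 in DSS S203A 1 all came from 1 barcode. Retnlb stood at 1126, 33.0, 1453 and 0 CPM against 7.58, 0, 244 and 0 (edgeR log2 change -4.96 ± 1.28, adjusted p = 0.245). The 33.0 and the 7.58 were 1 UMI each. Ccl6, a chemokine gene, stood at 382, 2739, 165 and 0 CPM against 60.7, 0, 0 and 0 (edgeR adjusted p = 0.245). The groups overlapped for each of these 4 genes. None of them had a UMI in the accessory gland barcodes, whose UMIs lower their CPM in untreated S203A 1.

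Genes of surface cells and of cycling cells had other patterns. Lypd8, which encodes a protein that holds flagellated bacteria off the colon surface, stood at 342, 627, 385 and 0 CPM without treatment and at 4027, 367, 1624 and 0 after DSS (edgeR adjusted p = 0.709). Car1, carbonic anhydrase I, had 1 UMI in the untreated barcodes, in untreated S203A 1, against 129, 33.3, 2030 and 0 CPM after DSS. Mki67 was at 0 in both untreated wildtype libraries, at 105 and 1585 CPM in untreated S203A, at 485 and 217 in DSS wildtype and at 0 in both DSS S203A libraries. The antimicrobial lectin gene Reg3b reached 5277 CPM in DSS S203A 1 and 0 to 55.4 CPM in the other 7 libraries, and all of its 109 UMIs lay in 4 barcodes.

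Between DSS and untreated in wildtype alone, no gene passed edgeR's test (0 of 760, or 0%, with 56 at an unadjusted p under 0.05 and 0 calls by DESeq2). The smallest unadjusted p among genes with lower values belonged to Mptx1, at 10332 and 1947 CPM against 0 and 0 (edgeR adjusted p = 0.0738), and to Hsd11b2, which inactivates glucocorticoids, at 342 and 1419 against 30.3 and 0 (adjusted p = 0.132). Among genes with higher values it belonged to Cxcl2, at 0 and 0 against 250 and 600 CPM (edgeR adjusted p = 0.132), and to AC160336.1 (adjusted p = 0.132). Mki67, at 0 and 0 against 485 and 217 CPM, was at least 10.7-fold higher after DSS than the floor of 3 UMIs over the 80046 untreated wildtype UMIs, and was not called (edgeR adjusted p = 0.269). This bound pools UMIs and covers counting error only, not the spread between barcodes or libraries. Without the 15 barcodes, 53 of 2134 genes passed this comparison (2.48%), although none of those 15 came from a wildtype library. The barcodes compared in wildtype were the same in both fits, and what changed was the S203A sums that share the estimate of spread and the number of genes that passed the filter. Leaving out 1 library gave up to 42 calls, the highest count without DSS S203A 2, followed by 33 without DSS S203A 1.

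In S203A, 0 of 760 genes passed between DSS and untreated (0%, 65 at an unadjusted p under 0.05, against 16 calls by DESeq2). The count was 110 without DSS S203A 1 and 3 of 2134 without the 15 barcodes (0.141%). Each of these settings leaves 1 library after DSS in S203A, in the first case the single Krt13 and Krt6a barcode and in the second 3 barcodes, and the fit assumes that this library varies like the other groups. With both DSS S203A libraries kept, leaving out any 1 wildtype library, none of which enters this comparison except through the spread and the filter, gave 43 to 51 calls. The lowest p among higher values were those of 2200002D01Rik and of Gsto1, a glutathione transferase gene with 757 of its 869 UMIs in the Krt13 and Krt6a barcode (edgeR adjusted p = 0.198 and 0.351). DSS S203A 1 had 0 Gsto1 UMIs in 12317, against 83.8 CPM in untreated S203A 1, so without that barcode no direction could be read for this gene at this depth. Among lower values they were those of the chaperone genes Hsp90aa1, at 2819 and 11775 CPM against 650 and 279, and Hspe1, at 940 and 2944 against 162 and 34.9 (edgeR adjusted p = 0.351 for both). In untreated S203A 1, accessory gland barcodes gave 1301 of the 1883 Hsp90aa1 UMIs and 358 of the 628 Hspe1 UMIs. In T cell barcodes of the same 4 libraries, Hsp90aa1 stood at 4817 and 5721 CPM against 1639 and 1552.

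Between genotypes without treatment, 0 of 760 genes passed (0%, 16 at an unadjusted p under 0.05, 2 calls by DESeq2). The count was 34 without DSS S203A 2, 31 without DSS S203A 1, 11 without either DSS wildtype library and 7 of 2134 without the 15 barcodes (0.328%). The 2 smallest p in each direction belonged to Hspb1 and Mki67, higher in S203A, and to Sval1 and Hsd11b2, lower in S203A (edgeR adjusted p = 0.997 for all 4). Hspb1, a small heat shock protein gene, stood at 0 and 0 CPM in wildtype and at 485 and 0 in S203A, so that the genotypes met at 0. Mki67 stood at 0 and 0 against 105 and 1585, with the 1585 from 7 UMIs of 1 barcode. Sval1 stood at 482 and 3564 CPM in wildtype against 67.4 and 0 in S203A, and Hsd11b2 at 342 and 1419 against 79.3 and 0. For both, the S203A values were the lower ones. The zeros of untreated S203A 2 rest on 1 barcode of 4416 UMIs, so no direction could be read from them at this depth. Accessory gland barcodes held no UMI of either gene, and their UMIs lower the 67.4 and the 79.3 of untreated S203A 1. Of the 339 Hspb1 UMIs, 248 came from the accessory gland barcodes.

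Between genotypes after DSS, 0 of 760 genes passed (0%, 115 at an unadjusted p under 0.05, 15 calls by DESeq2). The count was 135 without DSS S203A 1 and 13 of 2134 without the 15 barcodes (0.609%), again with 1 S203A library after DSS. The 135 thus set the single Krt13 and Krt6a barcode against the wildtype barcodes, with the spread taken from the other groups. The count was 36 and 49 without untreated wildtype 1 and 2, 19 without DSS wildtype 2 and 10 without DSS S203A 2. Plet1 stood at 487 and 594 CPM in S203A against 53.1 and 83.4 in wildtype, and Sprr1a, a cornified envelope gene, at 81.2 and 9323 against 60.7 and 50.0 (edgeR adjusted p = 0.234 for both). The Plet1 value of 594 came from 17 UMIs of the Krt13 and Krt6a barcode, and the 487 from 6 UMIs. The Sprr1a value of 9323 was that of the Krt13 and Krt6a barcode, and without that library, which holds no other member, the fitted change was -0.03 (log2). Ran, a nuclear transport GTPase gene, stood at 0 and 34.9 CPM in S203A against 1001 and 1050 in wildtype, and Nme1, a nucleoside diphosphate kinase gene, at 0 and 0 against 698 and 450 (edgeR adjusted p = 0.234 for both).

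The DSS effects of the genotypes were set against each other in 1 model, and no gene passed (0 of 760, 0%, with 77 at an unadjusted p under 0.05 and 11 calls by DESeq2). The count was 9 without DSS S203A 2, 6 without DSS S203A 1 and 9 of 2134 without the 15 barcodes (0.422%), each with 1 S203A library left after DSS. The lowest p belonged to Sprr1a and Plet1 in one direction and to Mki67 and Tubb5, a tubulin gene, in the other (edgeR adjusted p = 0.299 for all 4).

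The DSS effect in the selected barcodes was also set against that in the T cell barcodes of the same libraries, which share the cell suspension and its free RNA, with the library as a block in the fit. For each gene, T cell sums and epithelial sums shared 1 estimate of the spread. The T cell sums held 3718 to 5021 barcodes and the epithelial sums 1 to 38. P-values of this fit therefore do not measure the spread of the epithelial sums alone. The difference passed edgeR's test for 65 of 13202 genes (0.492%), 38 with a higher and 27 with a lower effect in the epithelial barcodes, and for 0 by DESeq2 (184 at an unadjusted p under 0.05). Genes were ranked here among those whose difference from T cell barcodes in log2(CPM + 1) did not overlap between treatments. Where the selected barcodes of several libraries had no UMI of a gene, that difference was set by the T cell level alone. The 3 largest positive differences by this rule were those of Dapl1, Pitx1 and Lpcat4. All 5 Dapl1 UMIs and all 5 Pitx1 UMIs came from the Krt13 and Krt6a barcode, as did 5 of the 11 of Lpcat4. By the same rule, the 3 largest negative differences were those of Gbp7, Syvn1 and Slc41a2, which had no UMI in the 4 DSS sums. Gbp7, an interferon-induced GTPase gene, stood at 161, 66.0, 56.9 and 0 CPM in the untreated sums, from 48 UMIs in 15 barcodes. Of Syvn1, a ubiquitin ligase gene of the endoplasmic reticulum, 30 of 44 UMIs came from accessory gland barcodes, as did 10 of 15 of Slc41a2. With the 15 barcodes left out, 25 of 13766 genes passed (0.182%), and without untreated S203A 1 the count was 1. With RLE size factors 16 passed, 15 higher and 1 lower, and the median over all genes moved by 0.27 (log2).

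Among genes of the lists, 13 of 306 tested passed this comparison with T cell barcodes, 7 higher and 6 lower, beside 65 of all 13202 genes (0.492%). Klk1 of the goblet list had a lower effect (-5.87 ± 1.11, log2, SE, edgeR adjusted p = 0.000371). It stood at 563, 2310, 272 and 0 CPM in the untreated sums and at 30.3, 0, 1137 and 0 after DSS, while in T cell barcodes it stood at 0 to 0.268 CPM untreated and 0.334 to 1.06 CPM after DSS. The epithelial values overlapped between treatments, and the T cell values did not. Slc4a4, a sodium bicarbonate cotransporter gene, also had a lower effect (-4.75 ± 1.02, adjusted p = 0.00351). Its values were 40.2, 66.0, 34.4 and 0 CPM untreated against 7.58, 0, 0 and 0, from 28 UMIs in all. In T cell barcodes Slc4a4 stood at 0.577 to 1.34 CPM untreated and at 1.47 to 6.20 CPM after DSS, without overlap. The other lower effects were those of Smoc2 of the stem list, Vdr, which encodes the vitamin D receptor, Ddit3 of the ER stress list, and Gbp7. Smoc2 had 13 UMIs, none after DSS, and 145 of the 177 Ddit3 UMIs came from accessory gland barcodes.

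Higher effects included Car1 of the absorptive colonocyte list (7.95 ± 1.93, log2, SE, edgeR adjusted p = 0.0413), whose 45 UMIs came from 9 barcodes, 25 of them from 1 barcode of DSS S203A 1. Duox2, which encodes an oxidase that makes hydrogen peroxide at the mucosal surface, had an effect higher by 3.51 ± 0.87 (adjusted p = 0.0238). Its values were 161, 33.0, 32.9 and 0 CPM untreated and 60.7, 0, 731 and 0 after DSS, so DSS S203A 1 alone lay above the untreated range. In T cell barcodes Duox2 stood at 0.0642 to 0.736 CPM untreated and at 0 to 0.0756 CPM after DSS. The higher effects also included those of Anxa1 and Ly6d of the regenerative or fetal-like list, the squamous gene Lgals7 and Rbp2. The Krt13 and Krt6a barcode gave 369 of 449 Anxa1 UMIs, 59 of 61 of Ly6d, 31 of 33 of Lgals7 and 12 of 15 of Rbp2. With RLE size factors, the adjusted p stayed under 0.05 for Car1 (0.0383) and Slc4a4 (0.0439) and was 0.0608 or above for the other 11 list genes.

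The gene lists for colon and immune biology held few testable genes. The median change of the goblet list between DSS and untreated, genotypes averaged, was -2.49 (log2, 5 of 14 genes tested), against -0.12 over all 760 genes. By genotype this median was -4.56 in wildtype and 0.07 in S203A, and the difference between them was not tested for the list. Over the 45 barcodes the goblet list (7 of 14) had medians of -3.03 averaged, -3.02 in wildtype and -0.84 in S203A. The deep crypt secretory list shares Spink4 and Agr2 with the goblet list. For it the averaged median was -1.91 (3 of 4 tested), with -5.11 in wildtype and 0.07 in S203A. It was 2.70 for the regenerative or fetal-like list (3 of 10), with 3.05 in wildtype and -0.17 in S203A. Over the 45 barcodes this list (4 of 10) had medians of -2.02 averaged, 2.18 in wildtype and -5.99 in S203A, where 1 DSS library of 12317 UMIs was left. It was 1.77 for the absorptive colonocyte list (3 of 15), -2.36 for MHC class II (4 of 7), -1.24 for immediate early genes (11 of 12), -1.13 for ER stress (7 of 12) and 0.75 for glycolysis and hypoxia (6 of 15). No member of these 8 lists passed this comparison over the 60 barcodes. Over all lists, 80 of 381 genes were tested and 0 passed, with 23 at an unadjusted p under 0.05. With RLE size factors the median over all genes moved from -0.12 to 0.02.

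The list genes gave other counts over the 45 barcodes, a choice made after seeing the data, so that these calls are a description of that choice. Spink4 and Agr2 are on both the goblet and the deep crypt secretory list, so counts for these lists are not independent. Of 131 list genes tested there, 2 passed between DSS and untreated with genotypes averaged, Car1 with a higher and Retnlb with a lower level, beside 0.187% of all 2134 genes. In wildtype 21 of the 131 passed, beside 53 of all 2134 genes (2.48%), although the wildtype barcodes were the same as in the fit over the 60, where none did. Lower in that comparison were 3 of 7 goblet genes and 2 of 3 deep crypt secretory genes, among them Spink4 (-5.23 ± 1.02, log2, SE, edgeR adjusted p = 0.000296), Muc2 and Reg4. Higher were 5 of 7 proliferation genes, among them Mki67 (8.06 ± 1.89, edgeR adjusted p = 0.00437), which has no UMI in the untreated wildtype sums so that its fitted change is no bound. Between 2 and 6 of the 131 passed in each of the other comparisons of treatment or genotype, beside 0.141% to 0.609% of all genes.

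Receptors for the cytokines of Th17 cells were detected unevenly among the 45. Il17rc, a chain of the interleukin-17 receptor, was found in 14 barcodes, against 1.03% to 2.13% of the T cell barcodes of a library. Its partner Il17ra was found in 3, against 18.9% to 30.5% of the shallower T cell barcodes, and Il22ra1, the epithelial chain of the interleukin-22 receptor, in 1, against 0 T cell barcodes. Of the genes that respond to these cytokines in epithelium, Pigr was in 39 of the 45, Reg3g in 7 and Reg3b in 4. Cd74, the invariant chain gene of MHC class II, had a UMI in 43 of the 45, H2-Ab1 in 39 and H2-Aa in 38. Cd74 stood at 1870, 2013, 2469 and 1812 CPM of the 45 in the untreated libraries against 1069, 33.3 and 974 in the 3 DSS libraries that held any, with no overlap and an edgeR adjusted p over the 60 of 0.709. In T cell barcodes, Cd74 had a UMI in 21.9% to 36.7% and stood at 1526, 1783, 1797 and 1557 CPM in the untreated libraries and at 936, 749, 874 and 446 after DSS. The part of free RNA in the Cd74 values of the 45 was not tested.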

How the data were processed

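Single-cell 3′ RNA libraries of CD4+ enriched colonic lamina propria cells were deposited by the authors as tables of UMI counts per gene and barcode, 1 per library. The submitters' processing notes name Cell Ranger 3.1.0, Seurat 4.0.1 and the build mm10. Rows are numbered in 7 tables, and symbols were taken from the deposited row names by position. In the table with gene identifiers, 98.5% of 30934 matched identifiers gave the same symbol, and levels in T cell barcodes correlated with that table at r of 0.985 or more across 31053 genes. All 100673 barcodes were read, and no doublet caller was run. The rule kept 60 barcodes.

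UMI counts of the kept barcodes were summed per library and fitted with edgeR 4.0.16 (R 4.3.3, TMM, filterByExpr, quasi-likelihood F test, Benjamini-Hochberg adjustment over all genes tested), with DESeq2 as the alternative. The planned minimum of 10 barcodes per library would have left 1 library, so no minimum was set. This change was made after seeing the data. On simulated counts for the DSS comparison averaged over genotypes (838 genes tested), all 60 genes changed 16-fold and 12 of 42 changed 4-fold were recovered, with 0 false calls. The simulation gave every library the same gene proportions apart from the changed genes, and every gene the same fixed spread. Real sums of a few barcodes can spread more, so these rates need not hold for the real fit. CPM are UMIs per 1000000 UMIs of the kept barcodes. T cell barcodes had at least 3 Cd3 UMIs and no Epcam.

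Genes were named by a rule: up to 10 largest changes in each direction among called genes with separated groups (for the comparison with T cell barcodes, separated ratios to them) and at least 20 CPM for the DSS comparison, 3 for the others, and where none was called the 2 smallest unadjusted p in each direction. Mptx1 was named although its groups meet at 0, and Cxcl2 was singled out after its values were seen. Other genes were described outside this rule, among them Spink4, Muc2, Retnlb, Ccl6, Lypd8, Car1 and Reg3b. The members and lists were chosen with earlier results of these data known. The series text calls the 2 libraries of a group independent biological replicates and does not name animals, so p-values measure the spread between these libraries. Some genes of the lists are counted in the totals and are not reported here by name.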

Additional observations from a re-analysis of the deposited data

Results flagged for a closer look

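Untreated S203A library 1 lay far from the other 3 untreated libraries and from the other 3 S203A libraries in its share of selected barcodes, 0.360%. The gap to the next library was 0.897 of the range among the untreated and 0.970 among the S203A libraries, above the critical value of 0.829 for 4 samples. The same held without the accessory gland and the Krt13 and Krt6a barcodes, at 0.228% (0.835 and 0.914 of the range). Chance alone gives about 1 such gap in 20 groups, and 12 groups were examined.

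Outside the selected barcodes, 85 further barcodes of untreated S203A library 1 carried 20 or more UMIs of the male accessory gland list, against at most 2 in any other library. Of these 85, 59 had no Epcam UMI and 74 missed the keratin sum. In that library 99 such barcodes, selected or not, passed the gene and mitochondrial limits. On the authors' deposited cell list, 13 of its barcodes carried 20 or more such UMIs, counted without those limits.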

How the results depend on the processing

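With 60 barcodes, 38 of them in 1 library, most counts of called genes moved with the settings, and the cause was not tested. DESeq2 called 15 genes for DSS against untreated with genotypes averaged, 16 in S203A, 2 between genotypes without treatment, 15 after DSS, 11 for the difference of the DSS effects and 0 for the difference from T cell barcodes. With no filter on low counts these were 5, 69, 9, 41, 1 and 43. With RLE size factors the difference from T cell barcodes gave 16 calls. Leaving out members with Ptprc ended the calls of the averaged comparison, and this setting also empties untreated S203A 2. Among the 45 barcodes alone, chosen after seeing the data, the counts were 4 for the averaged comparison, 53 in wildtype, 3 in S203A, 7 between genotypes without treatment, 13 after DSS, 9 for the difference of DSS effects and 25 for the difference from T cell barcodes.

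Leaving out 1 library at a time gave 0 to 36 calls for the averaged comparison, 0 to 42 in wildtype, 0 to 110 in S203A, 0 to 34 and 0 to 135 between genotypes without treatment and after DSS, 0 to 9 for the difference of DSS effects and 1 to 103 for the difference from T cell barcodes. The largest counts came without DSS S203A 1 or DSS S203A 2, which leaves 1 library in that group, assumed to vary like the other groups. The difference in share ran from -0.114 to 0.00351 percentage points for DSS and from -0.0226 to 0.0945 for S203A, and both turned sign only without untreated S203A 1.

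Of 431 alternative values of single named genes, 4 turned direction: Gsto1 in S203A, at -6.42 (log2) without the 15 barcodes and -6.40 without DSS S203A 2, both fitted against DSS S203A 1 with 0 UMIs of this gene and so no measured change, and Sprr1a between genotypes after DSS, at -0.0055 and -0.0317. Leaving out 1 library at a time gave -6.40 to 12.46 for Gsto1 and -0.0317 to 7.60 for Sprr1a. RLE size factors shifted the median of all genes by -0.07 to 0.40 (log2) across the 7 comparisons. The comparison with T cell barcodes has the library as a block throughout. No paired analysis was made between groups of libraries, because the numbers in the sample names are shared by no 2 groups and the labels state no pairing.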
